A study of Homo sapiens with 16 samples.

Results

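Mesenchymal transcription factors were followed in single SK-N-AS cells: TWIST1, TWIST2, PRRX1, SNAI2, RUNX1, RUNX2, SOX9, NR3C1 and AEBP1. They were taken as the rows of the deposited table that carry one of these names, which gave 9 of 27043 gene rows. SK-N-AS is an established human line without amplification of MYCN, derived from neuroblastoma, a childhood tumour of sympathetic nerve precursors. The untreated cells were grown in RPMI1640 medium with serum and antibiotics, lifted with versene and sorted singly into plates for MARS-seq, a method that reads the 3′ ends of polyadenylated RNA. The labels describe 16 samples in 1 group, and none of the 603 columns of cells can be tied to a sample by its barcode, which left 1 pool without replicates. No test was therefore possible, and every interval below covers counting error only.

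Neuroblastoma cells can take an adrenergic state, with the factors and enzymes of noradrenaline-producing neurons, or a mesenchymal state that resembles neural crest derived connective tissue. TWIST1, TWIST2 and SNAI2 drive epithelial-mesenchymal transition. TWIST proteins are basic helix-loop-helix factors that bind E-boxes with E proteins such as TCF3, and ID proteins take E proteins away. SNAI2 is a zinc finger repressor of epithelial genes, and PRRX1 is a homeobox factor of embryonic mesenchyme. RUNX1 and RUNX2 bind DNA with CBFB and act in blood and bone, SOX9 directs cartilage and neural crest cells, NR3C1 is the glucocorticoid receptor, and AEBP1 is a protein of connective tissue that is also described as a transcriptional repressor.

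The cells held 1537576 counts, with totals per cell from 1000 to 42404 and a median of 2106, and the second deepest cell had 13400. That deepest cell accounted for 2.76% of counts and carried 6 of the 9 factors. Cells were therefore called positive at equal depth or compared with cells of similar depth. The planned gene comparisons still summed full counts, so deep cells weighed more in them. The deepest cell lay in the positive group for TWIST1 and for 2 or more factors. Column names repeat: 239 barcodes occur once among the first 316 columns (barcode set 1) and again among the other 287 (barcode set 2). The sets are not groups of the study and serve as a check within the pool. Of the markers of other cell types, all 4 of the adrenal cortex, 5 of 6 of Schwann cell precursors, 3 of 5 immune and 2 of 5 endothelial markers were at 0, and the other 3 endothelial markers had 1 or 2 counts each. The other immune markers were not near 0: CD68 had 84 counts, in 11.4% of cells, and PTPRC had 29 counts, in 4.15% of cells. Of 4 epithelial markers, CDH1 was at 0, EPCAM had 1 count, KRT8 had 24.1 CPM (counts scaled to a common library total, the usual unit of level) and KRT18 334 CPM in 44.1% of cells. Adrenergic markers were present, with 11 of 12 above 0 and TBX2 at 407 CPM. Fibroblast markers, which overlap with the mesenchymal state, were present for 7 of 9.

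TWIST1 was the most abundant of the 9 factors and RUNX2 the scarcest. TWIST1 had 183 counts, or 119 CPM (95% Poisson interval 102 to 138), summed over all cells. It stood at 130 CPM in barcode set 1 and 108 CPM in barcode set 2. Cells with a count numbered 141, or 23.4% (exact interval 20.1 to 27.0), and no cell held more than 3 counts. TWIST2, its close relative, had 10 counts in 10 cells, or 6.50 CPM. Both sets were low for it, with 6 counts in set 1 and 4 in set 2.

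AEBP1 came second with 98 counts, or 63.7 CPM (51.7 to 77.7), in 13.4% of cells. Its row is shared with the microRNA gene MIR4649, and the counts cannot be divided between the 2 genes. PRRX1 followed with 70 counts, or 45.5 CPM (35.5 to 57.5), in 8.96% of cells. Barcode set 1 and set 2 gave 71.2 and 55.9 CPM for AEBP1, and 39.4 and 51.9 CPM for PRRX1. TWIST1, AEBP1 and PRRX1 together held 73.0% of the counts of the 9 factors, which summed to 481 counts or 0.0313% of all counts.

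SOX9 had 46 counts, or 29.9 CPM (21.9 to 39.9), in 5.64% of cells. RUNX1 had 36 counts, or 23.4 CPM (16.4 to 32.4), in 4.98% of cells. SOX9 was at 36.9 CPM in set 1 and 22.6 CPM in set 2, and RUNX1 at 20.3 and 26.6 CPM. The other factors were seen in few cells. SNAI2 had 18 counts in 16 cells, NR3C1 had 13 counts in 11 cells, and RUNX2 had 7 counts in 7 cells. Of the 13 NR3C1 counts, 3 lay in the deepest cell.

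In the order of levels, TWIST1 exceeded AEBP1 by 0.90 on the log2 scale (0.54 to 1.27), AEBP1 exceeded PRRX1 by 0.49 (0.03 to 0.95), PRRX1 exceeded SOX9 by 0.61 (0.05 to 1.18) and RUNX1 exceeded SNAI2 by 1.00 (0.15 to 1.90). The neighbours SOX9 and RUNX1, SNAI2 and NR3C1, NR3C1 and TWIST2, and TWIST2 and RUNX2 did not differ beyond counting error. Counts of 3′ ends were not divided by transcript length, and how well each gene's end is captured is not known, so this order is one of counts. The difference between the barcode sets included 0 in its interval for each of the 9 factors.

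**Figure D1:**
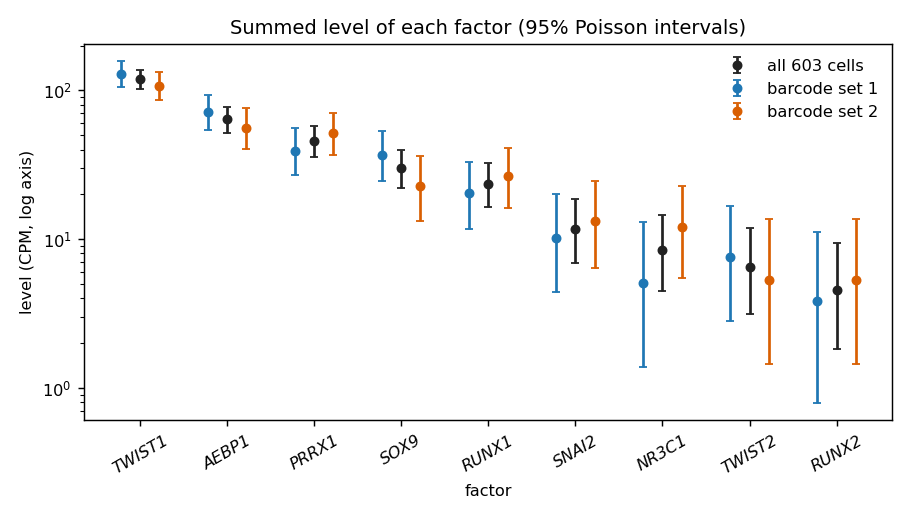
Level of each factor in CPM (log axis) in all 603 cells and in each barcode set, with 95% Poisson intervals. TWIST1 at 119 CPM stands highest and RUNX2 at 4.55 CPM lowest, and the intervals of the 2 sets overlap for every factor.

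Shares of cells grow with depth: cells with TWIST1 had a median total of 2834 counts, against 1964 in cells without it. Each cell was therefore thinned to 1100 counts, for which 560 cells were deep enough and 43 were not. At this equal depth TWIST1 was seen in 69 cells, or 12.3% (9.71 to 15.3), AEBP1 in 43 (7.68%), PRRX1 in 21 (3.75%), SOX9 in 14 (2.50%) and RUNX1 in 12 (2.14%). SNAI2 was seen in 5 cells, TWIST2 in 4, NR3C1 in 3 and RUNX2 in 0 of 560, which allows a share of up to 0.536% if 3 counts are taken as the limit. At this depth a cell without a count may still hold the RNA.

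At least 1 of the 9 factors was seen in 139 of the 560 thinned cells, or 24.8% (21.3 to 28.6). At least 2 were seen in 30 cells, or 5.36% (3.64 to 7.56), and 3 in 2 cells. With the counts as deposited, 259 of 603 cells (43.0%) had at least 1 factor, 87 had at least 2, 26 had at least 3, and the deepest cell alone had 6. Barcode sets 1 and 2 gave 24.9% and 24.7% of thinned cells with at least 1 factor, so the sets hardly differed in this share.

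**Figure D2:**
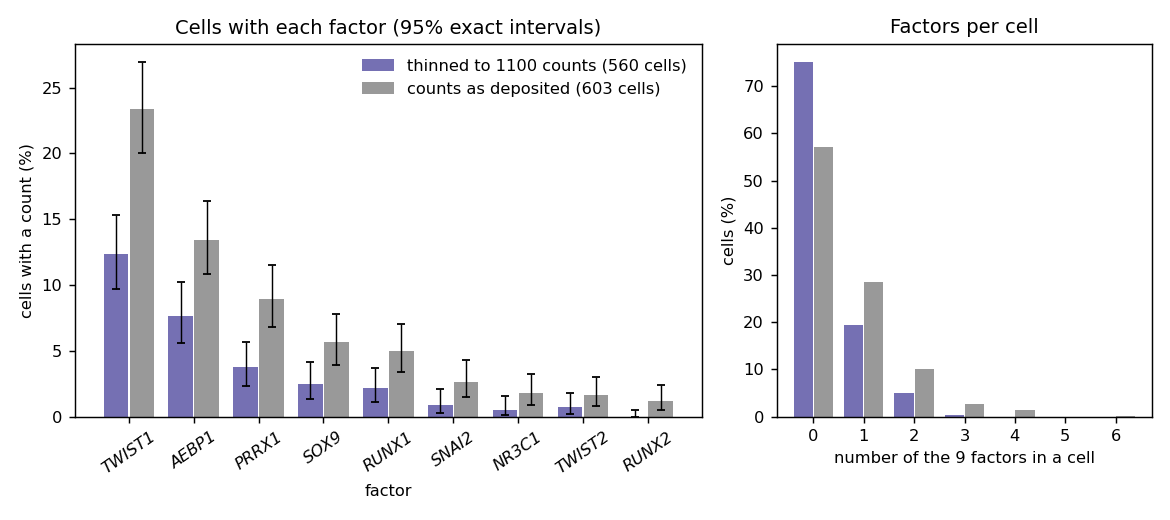
Left, share of cells with a count of each factor after thinning to 1100 counts and as deposited, with exact 95% intervals (for thinned RUNX2, the limit of 3 counts); right, share of cells by the number of factors seen. Thinning lowers TWIST1 to 12.3% of cells, against 23.4% as deposited, and leaves 75.2% of cells with none of the factors.

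Among relatives and partners of the factors, several were more abundant than the factors themselves in counts. The inhibitors ID1 and ID3 stood at 835 and 819 CPM and ID2 at 235 CPM. The E proteins TCF3 and TCF4 stood at 91.7 and 90.4 CPM. Of the other factors of epithelial-mesenchymal transition, SNAI1 had 60.5 CPM and ZEB1 41.0 CPM, and 6 of 15 genes on that list were at 0, SNAI3 among them. CBFB, the partner of RUNX proteins, had 29.9 CPM, and the corepressor TLE4 had 33.8 CPM, while RUNX3 was at 0, which allows up to 1.95 CPM.

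Genes downstream of RUNX2 and SOX9 in bone and cartilage were mostly unseen. Of 22 such genes 14 were at 0, among them the cartilage collagen COL2A1, the cartilage proteoglycan ACAN and the osteoblast factor SP7. COL1A1, a fibrillar collagen that many mesenchymal cells make, had 301 CPM, and the parathyroid hormone-like gene PTHLH had 61.8 CPM. Of 24 targets and partners of the glucocorticoid receptor, the chaperones HSP90AB1 and HSP90AA1 had 2456 and 816 CPM and the metallothionein MT2A 1028 CPM. FKBP5, a classic glucocorticoid target, had 43.6 CPM, and the mineralocorticoid receptor NR3C2 was at 0. Of 18 epithelial genes that such factors repress, 9 were at 0, including the cadherin CDH1, and the keratin KRT18 was highest at 334 CPM.

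Whether the factors occur in the same cells was asked for all 36 pairs. The main measure compared thinned cells with both factors with the number expected from the product of their shares. For the 3 pairs with at least 20 positive thinned cells of each member, more cells than expected held both. TWIST1 and PRRX1 were together in 7 cells, against 2.59 expected, with an odds ratio of 3.83 (1.26 to 10.6) and a Spearman rho of 0.13 over 560 cells that share plates, a line and 1 depth. TWIST1 and AEBP1 were together in 9 cells, against 5.30 expected, with an odds ratio of 2.01 (0.81 to 4.56). PRRX1 and AEBP1 were together in 4 cells, against 1.61 expected, with an odds ratio of 3.01 (0.70 to 9.85). The interval lay above 1 for the first pair and included 1 for the other two. Observed over expected was 2.71 for TWIST1 and PRRX1, and fell to 1.42 with another seed and to 1.14 at 2000 counts.

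Thinning discards counts, so the pairs were also counted in the deposited data, with the expected number computed within 10 strata of equal cell number by total count, here called like depth, and the deepest cell left out. This was added after the data had been seen. TWIST1 and AEBP1 were then together in 37 cells, against 26.7 expected, a ratio of 1.39 (0.98 to 1.91). TWIST1 and PRRX1 were together in 21 cells, against 15.7 expected, a ratio of 1.34 (0.83 to 2.05), and PRRX1 and AEBP1 in 15, against 9.84 expected, a ratio of 1.52 (0.85 to 2.52). TWIST1 and SOX9 were together in 17 cells, against 9.85 expected, a ratio of 1.73 (1.01 to 2.76). In barcode set 1 this pair was seen in 14 cells, against 7.71 expected, and in set 2 in 3 cells, against 2.49 expected, so set 1 carried most of the excess.

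Over all 36 pairs, 163 joint cells were counted, against 129.6 expected at like depth, a ratio of 1.26 (1.07 to 1.47). With thinned counts the sum was 34, against 19.5 expected, a ratio of 1.75 (1.21 to 2.44), which fell to 1.10 when the thinning was drawn with another seed. One cell with several factors counts in several pairs, so these sums are not independent and their intervals are too narrow. Of the 23 pairs expected in at least 1 cell, 16 lay above the expected number and 7 below it. TWIST1 with SOX9 was the single pair whose interval lay above 1, and none lay below. RUNX1 with AEBP1, at 6 cells against 6.69 expected, and PRRX1 with RUNX1, at 2 cells against 3.83 expected, were not above it. RUNX1 and RUNX2 shared 2 cells, against 0.419 expected.

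**Figure D3:**
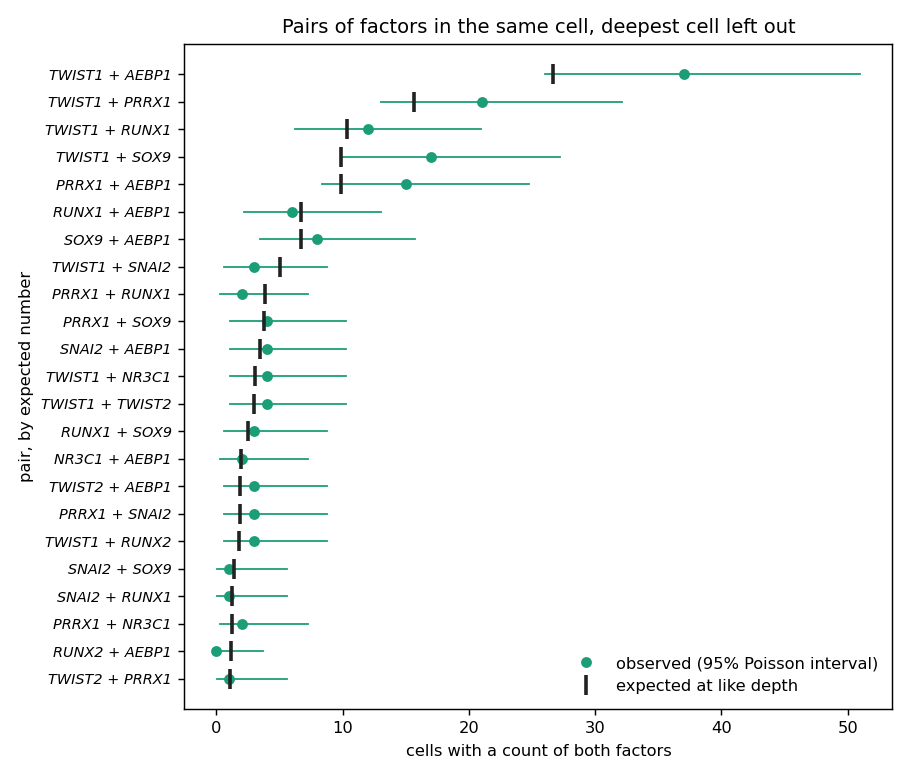
Observed cells with both factors (points, 95% Poisson intervals) and the number expected at like depth (black ticks) for the 23 pairs expected in at least 1 of 602 cells. TWIST1 with AEBP1 is the most frequent pair, at 37 cells against 26.7 expected, and only the interval of TWIST1 with SOX9 (17 against 9.85) lies wholly above its tick.

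Genes that go with a factor were sought in 2765 genes with at least 100 counts, comparing cells with the factor with cells without it. The planned comparison split cells by thinned counts and summed their full counts, and 2 factors had the planned 40 positive cells, TWIST1 and AEBP1. For PRRX1, RUNX1 and SOX9, and again for TWIST1 and AEBP1, cells with a deposited count were compared with the number expected from cells without the factor at like depth, the deepest cell left out. A log2 ratio past 0.5 in either direction is counted as past the fold. Named genes are the extremes of 2765 ratios, and their intervals do not allow for that choice. A shared sign in both barcode sets was a condition for being named, so it lends them no support. Single members of gene lists beyond the 3 most abundant are named because of their values. The comparisons share most of their cells, so their values are given side by side.

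Cells with TWIST1 (69, against 491 without it) held more LAMA5, NT5E and PLEC RNA in the planned comparison, by ratios that were smaller under another thinning. LAMA5, a laminin chain counted together with the microRNA gene MIR4758, had 39 counts in cells with TWIST1, against 12.5 expected from cells without it, a log2 ratio of 1.64 (1.03 to 2.24), with 1.02 in set 1, a higher value in set 2, and 0.51 at like depth. NT5E, the ecto-nucleotidase CD73 of mesenchymal stromal cells, had 54 counts, against 26.4 expected, a log2 ratio of 1.03 (0.55 to 1.50), with 1.08 in set 1 and 0.99 in set 2. NT5E was alike in both sets, and at like depth its ratio was 0.83. PLEC (0.87), the cytoskeletal linker plectin, DKK2 (1.04), a secreted modulator of Wnt signalling, and TRIM47 (1.08) completed the 5 highest and stood at 0.19, 0.66 and 0.30 at like depth. With another seed for the thinning, LAMA5 stood at 0.49, NT5E at 0.30, PLEC at 0.009, DKK2 at 0.55 and TRIM47 at 0.14, and at 2000 counts LAMA5 stood at 0.11, NT5E at 0.08 and PLEC at -0.24. These values thus depended on which cells the thinning called positive. The deepest cell was among the 69. Without it, LAMA5 stood at 1.21, NT5E at 1.01, PLEC at 0.42, DKK2 at 1.31 and TRIM47 at 1.16. DDC, an enzyme of noradrenaline synthesis, was lower, with 18 counts, against 54.3 expected, a log2 ratio of -1.59 (-2.37 to -0.91), and stood at -0.84 at like depth. CHGA, a protein of secretory granules, and INS-IGF2 were lower as well (-3.46 and -2.17), but 83.9% of CHGA counts and 48.8% of INS-IGF2 counts lay in 10 cells, and at like depth these ratios became 1.53 and 0.02.

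Of all 2765 genes, 6.04% lay past the fold on the higher side and 7.27% on the lower side with TWIST1, and 4.3% and 4.16% at like depth. Genes that ranked in the 20 highest in barcode set 1 lay above 0 in set 2 in 13 of 20 cases, against 49.98% of all genes. Those chosen in set 2 lay above 0 in set 1 in 6 of 20 cases, against 46.4%. The ranking in one set thus said little about the other.

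At like depth, VIM, the intermediate filament vimentin of mesenchymal cells, was higher with TWIST1 by 0.43 (0.37 to 0.48), with 0.20 in set 1 and 0.72 in set 2. The same ratio was 0.45 (0.37 to 0.53) with PRRX1, 0.31 (0.24 to 0.37) with AEBP1 and 0.30 (0.19 to 0.40) with SOX9, and 0.07 (-0.04 to 0.18) with RUNX1. VIM was thus above 0 in both sets with TWIST1, PRRX1, AEBP1 and SOX9. With RUNX1 it was at -0.18 in set 1 and 0.26 in set 2. Without VIM, the sum of the mesenchymal effectors was 0.04 with TWIST1, -0.05 with PRRX1, -0.11 with AEBP1, -0.008 with SOX9 and 0.29 with RUNX1. With AEBP1, 8 of 13 effectors lay below 0 and the median was -0.14, and with PRRX1, 7 of 13 lay below 0.

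By the same rule, CHGA ranked first at like depth at 1.53 (1.21 to 1.83), and stood at 0.32 without 1 cell that held 49 of its 86 counts. PLXNA2, a semaphorin receptor, ranked next, with 46 counts in cells with TWIST1, against 18.1 expected, a log2 ratio of 1.35 (0.90 to 1.76). It stood at 1.14 in set 1 and 1.63 in set 2, and was seen in 21.4% of cells with TWIST1 (14.9 to 29.2), against 9.67% expected. WRNIP1, APOPT1 and C8orf55 were higher by 1.10, 1.03 and 1.04, and WRNIP1 was seen in 35.7% of cells, against 16.9% expected. Spearman rho over the thinned cells was low for all of these, at -0.05 for CHGA, -0.008 for PLXNA2, 0.09 for WRNIP1, 0.08 for APOPT1 and 0.05 for C8orf55. The histone gene HIST1H2BK, the chemokine CCL2 and MESDC2 were lower at -1.27, -1.24 and -1.36.

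Members of the lists also went with TWIST1 at like depth. TEAD1, a DNA-binding partner of YAP1, was higher by 0.68 (0.40 to 0.94), and DUSP4, a phosphatase induced by MAPK signalling, by 0.91 (0.52 to 1.27). LAMB1, a laminin chain, was higher by 0.69 (0.30 to 1.05). LUM, the matrix proteoglycan lumican, had a log2 ratio of -0.80 (-1.26 to -0.37). Of the lists, 1 of 13 mesenchymal effectors lay past the fold higher and 0 lower, 2 of 14 matrix genes higher and 2 lower, and 0 of 15 G1/S genes higher and 2 lower. The median of the mesenchymal effectors was 0.02, against 0.00 for all genes. The partners TCF3 and TCF4 and the inhibitors ID1, ID2 and ID3 all stayed within the fold.

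Cells with AEBP1 (43, against 517 without it) held more INS-IGF2 RNA and less of the chemokine gene CCL2, by ratios that moved with a single cell or with the seed. INS-IGF2 had a log2 ratio of 1.96 (1.77 to 2.14), but a single cell held 199 of its 325 counts, and without that cell the ratio was 0.66. BZW2 and BTBD2 were higher by 1.05 and 1.06, and stood at 0.35 and 0.64 at like depth. C7, a complement component, and SLC31A1, a copper importer, were higher by 1.18 and 1.21 and stood at 0.31 and 0.27 at like depth. CCL2 had 1 count in cells with AEBP1, against 17.6 expected, and at like depth 21 counts, against 62.0 expected, a log2 ratio of -1.56 (-2.25 to -0.95). UBE2S, a ubiquitin conjugating enzyme of mitosis, had 4 counts, against 18.8 expected, and BCL2L1, a survival protein, had 1, against 10.3 expected. At like depth their log2 ratios were -0.90 and -0.45. With another seed CCL2 stood at -0.41, UBE2S at -1.22, BCL2L1 at -0.28, SLC31A1 at 0.24 and BZW2 at 0.52. All genes past the fold made up 8.97% higher and 12.9% lower, and 6.15% and 7.09% at like depth. In the planned comparison, 11 of the 20 genes highest in set 1 lay above 0 in set 2, against 47.0% of all genes. With the sets exchanged it was 6 of 20, against 47.9%. Among the 20 lowest, 8 and 15 lay below 0 in the other set, against 53.0% and 52.1%.

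At like depth SCARF2, a scavenger receptor family member, was higher by 1.29 (0.74 to 1.78), MCL1, a survival protein, by 1.11 (0.69 to 1.50) and TMEM93 by 1.10 (0.56 to 1.59), each with both sets above 0.9. TIMM21, of the mitochondrial import machinery, was lower at -1.65 and the G protein subunit GNA12 at -1.39.

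Matrix genes were mixed in cells with AEBP1. At like depth 4 of 14 with enough counts lay past the fold higher and 2 lower, where all genes gave 6.15% and 7.09%. The sum of all 28 matrix genes was at -0.06 (-0.13 to 0.01), with -0.30 in set 1 and 0.22 in set 2. LAMB1 was higher by 0.97 (0.53 to 1.38), BGN, the proteoglycan biglycan, by 0.68 (0.36 to 0.98) and COL1A1 by 0.67 (0.40 to 0.93), though COL1A1 stood at -0.16 in set 1 and 1.47 in set 2. LUM was lower, with a log2 ratio of -1.20 (-1.87 to -0.60). CCND1, the G1 cyclin, was higher by 0.90 (0.55 to 1.23), with 0.85 in set 1 and 1.00 in set 2. KRT18 was lower at -0.55 (-0.89 to -0.23), and the surface protein THY1 at -0.52 (-0.76 to -0.29).

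Cells with PRRX1 (53, against 549 without it) held more RNA of G2/M genes as a list, while matrix genes went both ways. PLXNA2 had 26 counts, against 9.18 expected, a log2 ratio of 1.50 (0.89 to 2.05), with 1.45 in set 1 and 1.71 in set 2. BGN was higher by 1.06 (0.70 to 1.41), TMEM126B, an assembly factor of respiratory complex I, by 1.24 (0.74 to 1.70) and the nucleoporin AAAS by 1.16 (0.62 to 1.66). TUBB3, a neuronal tubulin, was higher by 1.06, with 1.71 in set 1 and 0.29 in set 2, and fell to 0.61 without 1 cell that held 28 of its 85 counts. Spearman rho over the thinned cells was 0.06 for PLXNA2 and TMEM126B, 0.05 for BGN, 0.009 for AAAS and 0.0003 for TUBB3. FAM120A had 3 counts, against 17.7 expected, and CHGA and INS-IGF2 had log2 ratios of -2.98 and -1.51. INS-IGF2 was nevertheless seen in 30.2% of cells with PRRX1, against 25.8% expected. CHGA was seen in 1.89% (0.05 to 10.1), against 6.76% expected, which the interval includes. Among the 20 genes highest with PRRX1 in set 1, 12 lay above 0 in set 2, against 48.4% of all genes. With the sets exchanged it was 11 of 20, against 47.1%. Among the 20 lowest, 14 and 10 lay below 0 in the other set, against 51.6% and 52.9%.

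Of 14 matrix genes, 5 lay past the fold higher and 2 lower with PRRX1, where all genes gave 7.52% and 10.8%, and the median was 0.17, against -0.01 for all genes. The sum of all 28 matrix genes was at -0.04 (-0.13 to 0.05), with -0.14 in set 1 and 0.06 in set 2. LAMB1 was higher by 1.13 (0.59 to 1.62), the proteoglycan DCN by 0.82 (0.27 to 1.31) and COL1A1 by 0.75 (0.42 to 1.06), with both sets above 0 for each. The metalloproteinase inhibitors TIMP1 and TIMP2 were lower by log2 ratios of -0.57 and -0.70. Of 18 G2/M genes with enough counts, 5 lay higher and 0 lower. The sum of all 29 G2/M genes was higher by 0.28 (0.20 to 0.36), with 0.38 in set 1 and 0.21 in set 2. Among them AURKB, a mitotic kinase, was higher by 0.94 and CDC20, an activator of the anaphase complex, by 0.59. THY1 was lower at -0.58 (-0.92 to -0.26).

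RUNX1 was seen in few cells (29, against 573 without it), and these were deep, with a median total of 3675, against 2075. The 2 genes highest with it by the lower bound of the interval encode an activator of plasminogen and an inhibitor of such activators. SERPINB2, the plasminogen activator inhibitor PAI-2, had 101 counts in cells with RUNX1, against 26.8 expected at like depth, a log2 ratio of 1.91 (1.62 to 2.20), with 2.18 in set 1 and 1.47 in set 2. PLAT, the tissue plasminogen activator, had 115 counts, against 36.3 expected, a log2 ratio of 1.66 (1.39 to 1.93), with 1.56 in set 1 and 1.88 in set 2. Without the cell that held most counts of each gene, the ratios were 1.41 for SERPINB2 and 1.33 for PLAT. SERPINB2 was seen in 16 of the 29 cells, or 55.2% (35.7 to 73.6), against 31.9% expected at like depth. PLAT was seen in 58.6% (38.9 to 76.5), against 39.4% expected, which the interval still includes. Spearman rho with RUNX1 over the thinned cells was 0.07 for SERPINB2 and 0.0005 for PLAT.

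COMMD1, a regulator of copper handling and NF-kB, was higher with RUNX1 by 1.70 (1.05 to 2.27), and the kinase LYN by 1.50 (0.89 to 2.04), each with both sets above 1. MALAT1, a nuclear long noncoding RNA, was higher by 1.29, but 0.22 without 1 cell with 39 of its 72 counts. On the lower side PTN, the heparin-binding growth factor pleiotrophin, had 2 counts, against 31.4 expected, a log2 ratio of -3.97 (-7.02 to -2.12). CHGA had 0 counts, against 20.7 expected. Its log2 ratio was -2.79 if 3 counts are taken as the limit, and its exact interval reached up to -2.49. INS-IGF2 had 6 counts, against 123.0 expected. CHGA was seen in 0% of cells with RUNX1 (0 to 11.9), against 7.64% expected, and 83.9% of its counts in the pool lay in 10 cells. INS-IGF2 was seen in 17.2% (5.85 to 35.8), against 29.2% expected. For both genes the interval of the share included the expected share. All genes past the fold made up 12.5% higher and 16% lower. Of the 20 genes lowest in set 1, 16 were below 0 in set 2, against 52.3% of all genes, and of the 20 lowest in set 2, 18 were below 0 in set 1, against 51.4%. Of the 20 highest, 11 and 12 stayed above 0.

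Mesenchymal effectors leaned to the higher side with RUNX1: 4 of 13 lay past the fold higher and 0 lower, with a median of 0.30, against -0.01 for all genes. Among them, CD44, the hyaluronan receptor, was higher by 0.98 (0.55 to 1.38), NT5E by 0.88 (0.24 to 1.45) and THY1 by 0.72 (0.44 to 0.98). Both sets lay above 0 for each of these, at 0.94 and 0.97 for CD44 and at 0.91 and 0.49 for THY1 in sets 1 and 2. Of 14 matrix genes, 3 lay higher and 2 lower. MMP2, a gelatinase, was higher by 0.77 (0.54 to 0.99) and SPARC by 0.45 (0.27 to 0.63), while DCN was at -1.69 and BGN at -0.80. Of 15 G1/S genes with enough counts, 0 lay higher and 5 lower. The sum of all 26 G1/S genes was at -0.42 (-0.60 to -0.25), with -0.43 in set 1 and -0.44 in set 2. All 9 fibroblast markers, of which COL1A1, COL3A1, DCN, LUM and THY1 had enough counts to be compared singly, summed to 203 counts, against 143.3 expected. Their part in the result was not tested.

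Promoters are shown for the RUNX genes and for SERPINB2, the gene highest with RUNX1, because RUNX proteins bind a short motif whose presence can be read directly. Sequences are from RefSeq (GRCh38.p14), 250 bases before to 50 after the start, 5′ to 3′ on the gene's strand. Capitals mark the RUNX letters TGTGGT or their reverse complement ACCACA, and the AP-1 letters TGANTCA. RUNX1 at chr21:34888650-34888949 (minus strand), RUNX2 upstream start at chr6:45328080-45328379 (plus strand), RUNX2 downstream start at chr6:45422025-45422324 (plus strand) and SERPINB2 at chr18:63887455-63887754 (plus strand) read as follows.
RUNX1: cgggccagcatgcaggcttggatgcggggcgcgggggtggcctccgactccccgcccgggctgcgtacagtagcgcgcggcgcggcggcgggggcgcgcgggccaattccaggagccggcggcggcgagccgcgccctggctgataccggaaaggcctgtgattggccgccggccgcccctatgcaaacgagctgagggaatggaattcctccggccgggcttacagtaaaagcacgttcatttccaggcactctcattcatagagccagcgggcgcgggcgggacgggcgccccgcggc
RUNX2 upstream: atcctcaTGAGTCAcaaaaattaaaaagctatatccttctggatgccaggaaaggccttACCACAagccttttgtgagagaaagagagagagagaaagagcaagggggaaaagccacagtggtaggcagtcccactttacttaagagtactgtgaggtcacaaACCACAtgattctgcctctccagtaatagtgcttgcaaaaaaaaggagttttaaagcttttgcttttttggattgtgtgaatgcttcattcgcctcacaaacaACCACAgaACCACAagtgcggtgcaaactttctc
RUNX2 downstream: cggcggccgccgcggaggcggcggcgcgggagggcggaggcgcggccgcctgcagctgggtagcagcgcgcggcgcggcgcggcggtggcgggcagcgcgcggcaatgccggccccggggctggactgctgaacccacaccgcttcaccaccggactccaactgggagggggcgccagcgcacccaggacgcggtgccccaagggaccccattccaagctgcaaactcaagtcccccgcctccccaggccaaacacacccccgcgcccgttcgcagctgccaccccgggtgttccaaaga
SERPINB2: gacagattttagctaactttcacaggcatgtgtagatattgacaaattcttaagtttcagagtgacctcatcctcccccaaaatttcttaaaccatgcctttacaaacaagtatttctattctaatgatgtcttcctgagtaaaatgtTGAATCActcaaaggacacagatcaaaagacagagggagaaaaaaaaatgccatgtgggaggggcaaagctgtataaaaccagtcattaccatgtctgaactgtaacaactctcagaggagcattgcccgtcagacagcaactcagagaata
The upstream RUNX2 window held 4 copies of the RUNX letters and 1 of the AP-1 letters, and the windows of RUNX1, of the downstream RUNX2 start and of SERPINB2 held 0 of the RUNX letters. SERPINB2 held 1 copy of the AP-1 letters. Of 35116 promoters of the same length, 13.1% held the RUNX letters and 7.71% the AP-1 letters on either strand. A match is a description of letters, not a site of binding. Of the 9 factors, 5 had a promoter among the entries searched, from which 1 chromosome had been left out.

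SOX9 (33 cells, against 569 without it) went with genes of the MAPK response, whose sum was also higher with RUNX1, TWIST1 and AEBP1. It went as well with a lower sum of matrix genes that came mostly from barcode set 1. EPHA2, a receptor tyrosine kinase, had 29 counts in cells with SOX9, against 9.49 expected, a log2 ratio of 1.61 (1.03 to 2.13), with 1.50 in set 1 and 1.77 in set 2. It was seen in 18 of 33 cells, or 54.5% (36.4 to 71.9), against 22.1% expected at like depth. NPY, the sympathetic neuropeptide, was higher by 1.29, MCL1 by 1.30, TOMM34 by 1.28 and C1orf212 by 1.34. NPY was seen in 21.2% of cells (8.98 to 38.9), against 9.49% expected, and 44.1% of its counts in the pool lay in 10 cells. The intervals of the shares of NPY, MCL1 and C1orf212 included the expected share, and that of TOMM34 did not. Spearman rho over the thinned cells was 0.02 for EPHA2 and TOMM34, -0.04 for NPY, 0.05 for MCL1 and 0.03 for C1orf212. SERPINB2 had 13 counts, against 35.8 expected, a log2 ratio of -1.46 (-2.37 to -0.69), on the side opposite to its ratio with RUNX1. The share of cells with SERPINB2 did not differ beyond counting error, at 27.3% (13.3 to 45.5), against 29.2% expected. MALAT1 and INS-IGF2 were lower in counts as well, at -1.79 and -1.08. They were nevertheless seen in 21.2% and 27.3% of cells with SOX9, against 19.7% and 28.4% expected.

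All genes past the fold made up 11.4% higher and 13.8% lower with SOX9. Among the 20 genes highest in set 1, 8 lay above 0 in set 2, against 47.2% of all genes. With the sets exchanged it was 10 of 20, against 49.6%. Among the 20 lowest, 11 and 13 lay below 0 in the other set, against 52.8% and 50.4%. Of 8 MAPK targets with enough counts, 4 lay higher and 0 lower, with a median of 0.49, against 0.01 for all genes. The sum of all 17 MAPK targets was higher by 0.48 (0.31 to 0.65), with 0.48 in set 1 and 0.31 in set 2. At like depth this sum was also higher with RUNX1 (0.30, 0.13 to 0.47), TWIST1 (0.22, 0.13 to 0.31) and AEBP1 (0.20, 0.08 to 0.31). With PRRX1 it was at -0.04 (-0.20 to 0.12). In cells with SOX9, the anti-apoptotic IER3 was higher by 0.57 and the feedback inhibitor SPRY2 by 0.55. Of 14 matrix genes, 1 lay higher and 5 lower, with COL1A1 at -0.85 (-1.59 to -0.21) and SPARC at -0.61 (-0.87 to -0.36), each below 0 in both sets, and LAMB1 at 0.98. The matrix sum was at -0.29 (-0.41 to -0.17), with -0.39 in set 1 and -0.07 in set 2. Of the 5 fibroblast markers with enough counts, 5 lay below 0. All 9 fibroblast markers together had 106 counts, against 150.3 expected, and their part in the result was not tested. Respiratory chain genes summed to -0.15 (-0.20 to -0.09). The sum of all 29 G2/M genes was higher by 0.23, but 0.52 in set 1 and -0.48 in set 2, so the sets disagreed. Of 7 adrenergic markers with enough counts, 0 lay higher and 4 lower. Of the immune markers, 17 counts were seen, against 7.23 expected, all from CD68 and PTPRC, with CD3D, CD79A and LYZ at 0, and their part in the result was not tested.

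**Figure D4:**
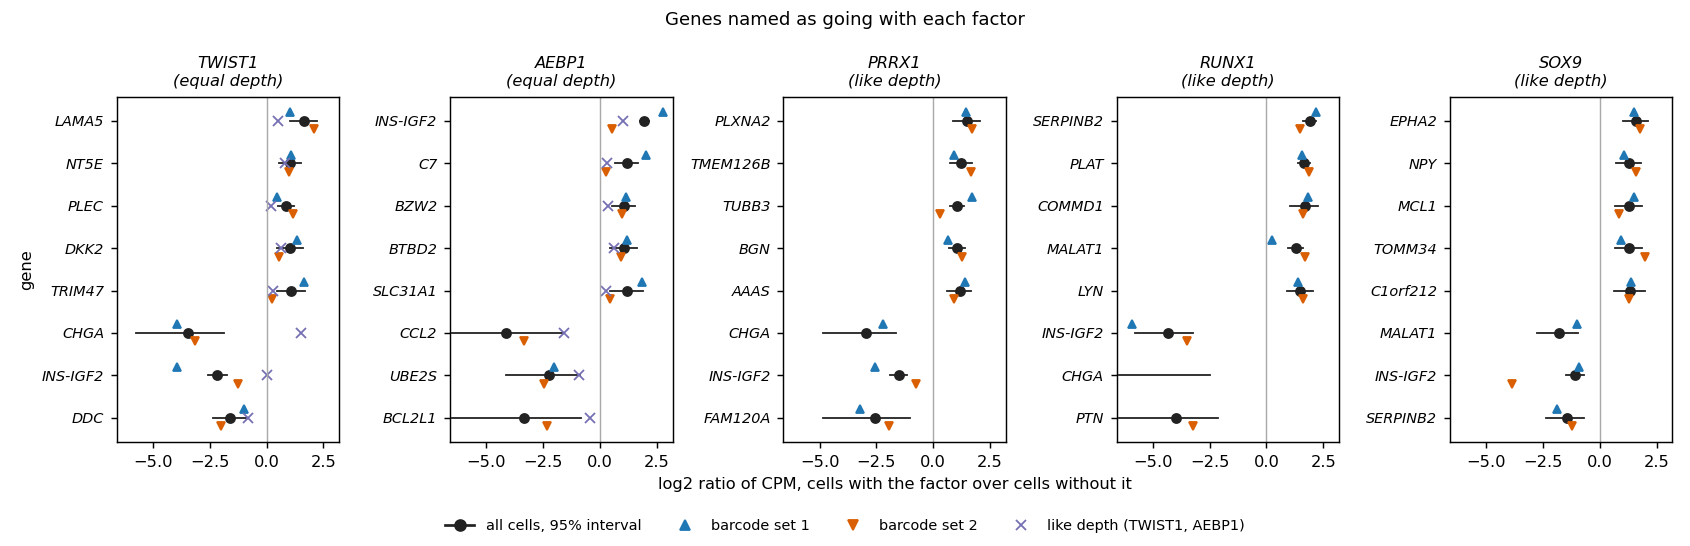
Log2 ratio of each named gene in cells with the factor over cells without it, in all cells (black, 95% interval) and in barcode sets 1 and 2, with the ratio at like depth (crosses) for TWIST1 and AEBP1. SERPINB2 and PLAT with RUNX1 and EPHA2 with SOX9 lie above 1 in both sets; intervals are drawn no further than the left edge, and ratios of genes with 0 counts are not drawn.

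**Figure D5:**
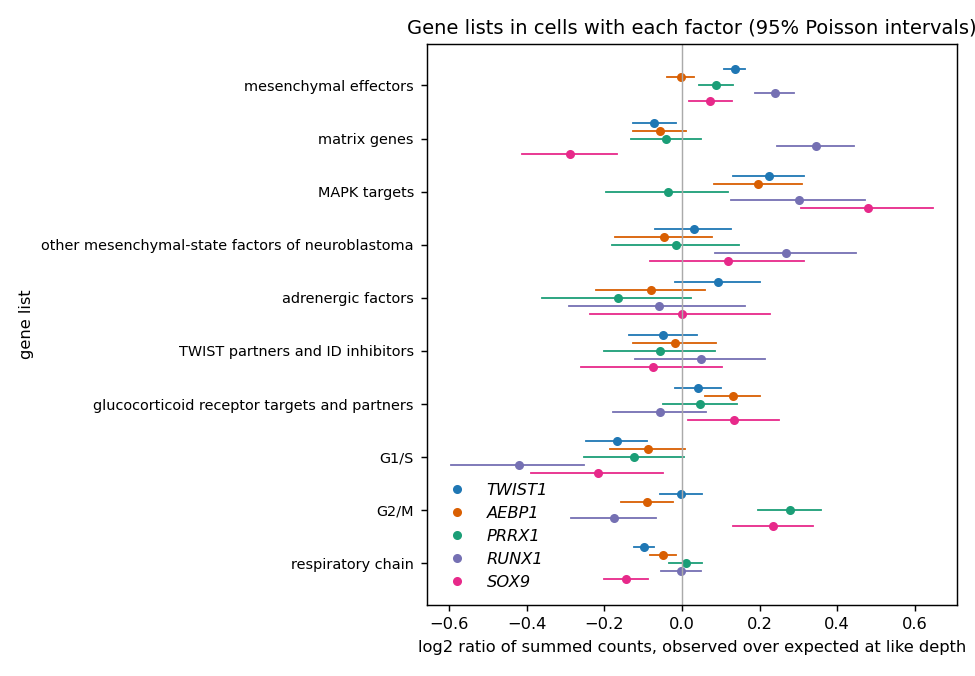
Log2 ratio of the summed counts of 10 gene lists in cells with each factor over the number expected at like depth, with 95% Poisson intervals. Mesenchymal effectors stand at 0.24 with RUNX1, MAPK targets at 0.48 and matrix genes at -0.29 with SOX9, and G1/S genes at -0.42 with RUNX1.

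Cells with 2 or more of the factors numbered 30 after thinning, against 421 with none, and the deepest cell was among the 30. That cell held 42404 of their 138870 counts. LAMB1 was highest, with 29 counts, against 9.32 expected, a log2 ratio of 1.64 (0.96 to 2.28), with 2.29 in set 1 and 1.23 in set 2, and 1.37 without the cell with most of its counts. ACTB, the cytoplasmic actin, was higher by 0.64 and HIST1H4C, a replication-dependent histone, lower at -1.31 (-1.54 to -1.09). All genes past the fold made up 12.5% higher and 13.3% lower. Among the 20 genes highest in set 1, 13 lay above 0 in set 2, against 49.7% of all genes. With the sets exchanged it was 5 of 20, against 46.6%. Among the 20 lowest, 8 and 10 lay below 0 in the other set, against 50.3% and 53.4%. TGIF2-C20ORF24 (1.51), TXNL1 (1.44), HDGF (1.20), XRCC5 (1.09), FLNC (1.01), PLEC (0.96), VGF (0.95) and YWHAB (0.85) completed the 10 highest, of which HDGF fell to 0.23 and PLEC to 0.05 without 1 cell. With another seed, TGIF2-C20ORF24, VGF, PLEC and FLNC stood at -0.96, -0.46, -0.61 and -0.48. The other values with that seed were 0.66 for TXNL1, 0.19 for HDGF, 0.31 for XRCC5, 0.18 for YWHAB, 0.29 for ACTB, -0.57 for HIST1H4C and 1.65 for LAMB1. CHGA and SHD had 0 counts, against 14.1 and 9.99 expected, and INS-IGF2 and GLUL had log2 ratios of -2.51 and -2.75, with GLUL at 0.21 under the other seed. In thinned counts, CHGA and SHD were seen in only 4.28% and 4.75% of cells with none of the factors. INS-IGF2 was seen in 16.7% of thinned cells with 2 or more factors and in 16.9% of those with none.

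SNAI2, NR3C1, TWIST2 and RUNX2 had too few cells for a comparison of genes. Of the 16 cells with SNAI2, 4 also held AEBP1, 3 TWIST1 and 3 PRRX1. Of the 11 with NR3C1, 5 held TWIST1 and 3 PRRX1. Of the 10 with TWIST2, 4 held TWIST1 and 3 AEBP1, and of the 7 with RUNX2, 4 held TWIST1, 3 RUNX1 and 0 AEBP1. For each of these pairs with TWIST1, AEBP1 or PRRX1, the interval of the observed over the expected number at like depth included 1.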

How the data were processed

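The file holds counts per gene and cell as deposited, whole numbers with no normalization, per the file itself. Per the submitters' processing notes, the authors used Bowtie2 2.1.0 and the hg19 build. Not given in the sources used here are strand handling, the counting tool, the annotation, the cell filter and whether a count is a molecule. All 603 columns were used, a row without a gene name held 2 counts (0.00013%) and was left out, and no doublet caller was run because cells were sorted singly. Cells were thinned to 1100 counts (seed 11, no replacement). Genes with at least 100 counts were compared. CPM carry exact Poisson intervals, shares exact Clopper-Pearson intervals and ratios exact conditional binomial intervals, at 95%, and a count of 0 allows up to 3 counts. At like depth, intervals treat the expected number as known. The ratio was tested on simulated Poisson counts with no extra spread between cells. That cannot show how its intervals perform for genes whose counts lie in few cells. With 1 pool there was no test and no count model.

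The factors, lists and rules were chosen with earlier results of these data known. Named are all 9 factors, the 5 highest genes by the lower bound and the 3 lowest by the upper bound per factor (10 and 5 for cells with 2 or more factors), with 1 sign in both barcode sets, and the 3 most abundant members of a list. One list member is not reported here by name, though list values include it. Comparisons at like depth, within 10 strata of cell totals, were added after the data had been seen, also for factors with under 40 positive thinned cells. Python 3.11.15, NumPy 2.4.6 and SciPy 1.17.1 were used.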

Additional observations from a re-analysis of the deposited data

How the results depend on the processing

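No paired analysis was possible because the cells carry no sample or replicate number, and for the same reason no replicate could be left out. Levels moved beyond their interval once, for TWIST1, at 143 CPM with ribosomal protein genes out of the total. AEBP1 has no row of its own name, so that alternative gave it no value. Cells with at least 1 factor made up 44.0% at 2000 counts and 43.0% as deposited, and cells with at least 2 made up 12.2% and 14.4%. The ratio over all pairs was 1.10 with another seed. Genes past the fold with TWIST1 were 11.4% higher and 19.5% lower when thinned counts were summed, 9.11% and 15.7% in set 1, 13.5% and 13.2% in set 2, 10.6% and 11.2% with at least 50 counts, and 4.16% lower at like depth. With AEBP1 they were 17.1% and 21.4% for thinned counts, 14.5% and 20.9% in set 1, 14.8% and 20.8% in set 2, and, on the lower side, 7.09% at like depth and 19.4% with at least 50 counts. With 2 or more factors they were 19.7% and 26.6% for thinned counts, 18.8% higher in set 2, 25.7% lower in set 1 and 22.7% lower with another seed. With PRRX1 they were 12.2% and 19.2% in set 1, 14.1% and 17.2% in set 2, and 11.6% and 16.4% with at least 50 counts, and with SOX9 22.1% and 29.6% in set 2. Fewer cells or counts widen the spread of the ratios.

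Among the named genes, 13 values changed sign. With TWIST1, PLEC stood at -0.24 at 2000 counts, CHGA at 1.53 at like depth, and INS-IGF2 at 0.019 with another seed and 0.025 at like depth. With 2 or more factors and another seed, TGIF2-C20ORF24 stood at -0.96, VGF at -0.46, PLEC at -0.61, FLNC at -0.48 and GLUL at 0.21. When thinned counts were summed, TGIF2-C20ORF24 stood at -0.047 and FLNC at -0.23, and at 2000 counts PLEC stood at -0.048 and YWHAB at -0.028. The cause was not tested. The named genes of PRRX1, RUNX1 and SOX9 were chosen to have 1 sign in both sets, and where a ratio could be formed they also kept it without strata of depth and without the cell with most counts. Depth limits all of this: 1 count is 0.65 CPM over the pool, and 4 of the 9 factors had under 20 CPM.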
